A study of Mus musculus with 2 samples.

Results

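Mir103-1, Mir103-2 and Mir107 are 3 microRNA genes that lie in introns of the pantothenate kinase genes Pank3, Pank2 and Pank1. They were chosen by gene symbol, and all 3 were found among the 1973 genes of the count tables. The tables come from microRNA-seq, in which small RNAs are ligated to adapters and sequenced, of total RNA from newborn mouse hindbrain. The mice were strain B6NCrl at postnatal day 0, and the labels name no treatment or altered allele. There is 1 group of 2 libraries, each made from the hindbrain of a single animal, named pup 1 and pup 3. Sex was not recorded, and RNA shorter than 30 nt was selected, per the labelled size range. A hindbrain holds many cell types, and more cells of a type cannot be told apart from more RNA per cell.

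Pantothenate kinases catalyse the rate-limiting step of coenzyme A synthesis, and each of the 3 genes carries 1 of these microRNAs within it. A microRNA precursor folds into a hairpin whose arms, called 5p and 3p, are cut out as short mature RNAs. A mature microRNA guides Argonaute proteins to messenger RNAs that pair with its seed, the bases from position 2 to position 8. The 3p arms, miR-103 and miR-107, are known as regulators of insulin sensitivity through caveolin-1 and of the microRNA-processing enzyme Dicer, and both are widely expressed in brain.

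The mature sequences are shown because the counts turn on how little the genes differ. They are from RefSeq on GRCm38.p6, written 5′ to 3′ with the seed in capitals, and all 3 genes matched.
miR-103-3p, from Mir103-1 and Mir103-2: aGCAGCAUuguacagggcuauga
miR-107-3p, from Mir107: aGCAGCAUuguacagggcuauca
miR-103-1-5p: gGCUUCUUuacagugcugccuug
miR-103-2-5p: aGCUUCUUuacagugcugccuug
miR-107-5p: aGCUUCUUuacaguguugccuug
The 3p arm is identical in Mir103-1 and Mir103-2, and miR-107-3p differs from it by G22C, counted from the 5′ end. The 5p arms differ by G1A between Mir103-1 and Mir103-2 and by C16U between Mir103-2 and Mir107. The seed GCAGCAU of the 3p arms was found in no mature microRNA of the RefSeq table from any other gene, and the same held for the 5p seed GCUUCUU.

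The whole precursors show where the genes can be told apart. The arms are in capitals.
Mir103-1: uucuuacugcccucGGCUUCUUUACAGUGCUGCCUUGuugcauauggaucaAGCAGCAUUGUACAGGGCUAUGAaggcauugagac
Mir103-2: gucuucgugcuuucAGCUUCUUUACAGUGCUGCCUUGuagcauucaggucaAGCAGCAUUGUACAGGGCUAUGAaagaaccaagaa
Mir107: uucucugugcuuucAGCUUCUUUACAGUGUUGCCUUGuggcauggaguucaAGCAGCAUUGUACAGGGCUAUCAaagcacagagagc
In each precursor the 5p arm spans bases 15 to 37 and the 3p arm bases 52 to 74. The 2 Mir103 precursors have the same base at 22 of 23 positions of the 5p arm and at 23 of 23 of the 3p arm. They have the same base at 9 of 14 positions of the loop and at 6 of 12 positions after the 3p arm. Over the first 86 bases, Mir103-2 matches Mir107 at 73 positions and Mir103-1 at 69. The longest stretch shared by the Mir103 precursors has 27 bases, and it extends beyond the 3p arm on both sides. From the first base of the 3p arm, 24 bases are the same in Mir103-1 and Mir103-2, and 21 are the same in all 3 genes. A read of 21 bases or fewer from that start therefore has the same letters at all 3 loci, and one of 22 to 24 bases has the same letters at both Mir103 loci. Among the GENCODE M21 transcripts, the miR-103-3p sequence was found in 2 genes, Mir103-1 and Mir103-2. Each of the other arms was found in 1 gene, and no arm was found in antisense orientation.

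The genes lie on 3 chromosomes but at like places in their hosts. Mir103-1 lies on chromosome 11 (35782396 to 35782481, mm10, plus strand), Mir103-2 on chromosome 2 (131288052 to 131288137, plus strand) and Mir107 on chromosome 19 (34820687 to 34820773, minus strand). Each lies on the strand of its host, in intron 5 of the principal host transcript, which has 7 exons in all 3 hosts. From the upstream exon to the precursor there are 688 bases in Pank3, 454 in Pank2 and 326 in Pank1. The introns have 1740, 5801 and 7282 bases, so that the precursors sit near the upstream exon in Pank2 and Pank1. No other gene overlaps them in GENCODE M21. The predicted folding energy (RNAfold) was -35.8 kcal/mol for Mir103-1, -31.8 for Mir103-2 and -41.2 for Mir107, and GC content was 47.7%, 45.3% and 47.1%. Messenger RNA of the hosts was not measured in these libraries.

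**Figure D1:**
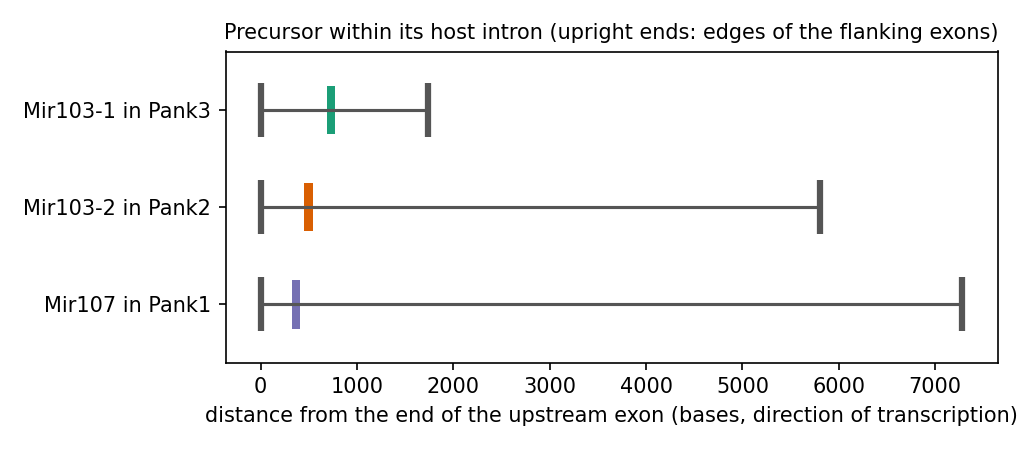
Position of each precursor (coloured box, to scale) in intron 5 of its host, as the distance in bases from the upstream exon. The upright ends mark the edges of the flanking exons. The precursors start 688, 454 and 326 bases into introns of 1740, 5801 and 7282 bases.

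Counts in the sense orientation of a microRNA gene totalled 2459757 for pup 1 and 3012320 for pup 3, and CPM (counts scaled to a common library total) were computed from them. By the inferred layout of the tables these totals hold no read with several matching loci. Such reads were 40.2% (pup 1) and 42.0% (pup 3) of each library. Neuronal microRNAs marked the tissue, with Mir137 at 12408 ± 1160 CPM (SD, n = 2), and 5 of 8 listed neuronal genes had at least 10 CPM in both pups. The 3 genes of miR-124 were the others, at 0.942 to 5.26 CPM. Mir10a and Mir10b, expressed in caudal brain and spinal cord, together held 4.52% ± 1.61 of counts. Of the listed striated muscle microRNAs, Mir1a-1 and Mir133a-1 had no count and Mir206 had 112 ± 18.7 CPM. Like miR-124, miR-1 and miR-133a are each made from more than 1 gene, so their low or missing counts do not show that they were scarce. The liver microRNA Mir122 had 43.7 ± 2.55 CPM. The red blood cell genes Mir451a and Mir144, the leukocyte genes Mir223, Mir150 and Mir155, and the pancreas genes Mir375, Mir216a and Mir217 held 0.0128%, 0.0519% and 0.167% of counts.

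Nearly all counts of the 3 genes were at Mir107. Mir107 had 9540 counts in pup 1 and 10825 in pup 3, or 3878 CPM (exact 95% Poisson interval 3801 to 3957) and 3594 CPM (3526 to 3662). It ranked 54th of 1973 genes in pup 1 and 58th in pup 3, and its mean was 3736 ± 201 CPM (SD, n = 2). Pup 1 was the higher, and the intervals of the pups did not overlap.

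Mir103-2 had 185 counts in pup 1 and 96 in pup 3, or 75.2 CPM (interval 64.8 to 86.9) and 31.9 CPM (25.8 to 38.9). Pup 1 was the higher of the pair, and the intervals of the 2 pups did not overlap. The mean was 53.5 ± 30.6 CPM (SD, n = 2), and the ranks were 243 and 272.

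Mir103-1 had 13 counts in pup 1 and 14 in pup 3, or 5.29 CPM (interval 2.81 to 9.04) and 4.65 CPM (2.54 to 7.80). Its intervals overlapped almost fully, and its mean was 4.97 ± 0.451 CPM (SD, n = 2). A count of 0 would allow as many as 3 counts, which is 1.22 CPM for pup 1 and 0.996 CPM for pup 3, so Mir103-1 was detected above that limit in both. At none of the 3 genes was any read counted on the opposite strand.

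The order of the levels was the same in both pups, with Mir107 above Mir103-2 and Mir103-2 above Mir103-1, and no interval of a gene overlapped that of its neighbour in the order. A mature microRNA is read as 1 whole molecule and the precursors have 86, 86 and 87 bases, so levels were compared without division by length. Mir107 held 97.97% of the counts of the 3 genes in pup 1 (exact binomial interval 97.7% to 98.2%) and 98.99% in pup 3 (98.8% to 99.2%). Its count was 48.2 times that of the Mir103 genes together in pup 1 (interval 41.9 to 55.7) and 98.4 times in pup 3 (81.6 to 119.9). These shares and ratios are of reads counted at a single locus. Reads of miR-103-3p of up to 24 bases from the arm's start match both Mir103 loci, whereas miR-107-3p differs from them at base 22. The order, share and ratio therefore describe the tables and do not measure how much more miR-107 than miR-103 the tissue held. The genes together held 0.396% of all counts in pup 1 and 0.363% in pup 3. Intervals cover counting error only, since each comes from the counts of 1 library. They treat each read as independent, and the reads carry no molecular identifiers to check this.

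Between the loci of miR-103, Mir103-2 held 93.4% of the counts in pup 1 (interval 89.0% to 96.5%) and 87.3% in pup 3 (79.6% to 92.9%). Its count was 14.2 times that of Mir103-1 in pup 1 (interval 8.12 to 27.2) and 6.86 times in pup 3 (3.89 to 13.0). These intervals overlap, and a difference of the share between the pups was not tested. By the inferred layout, reads of miR-103-3p of up to 24 bases from the arm's start are in neither Mir103 count. Those counts would then hold other reads, such as those of the 5p arm or those that extend past the shared bases. The tables count reads per precursor and do not tell these apart, so the shares and ratios are not of miR-103-3p. How many of the reads that map to several loci carry the miR-103-3p sequence was not tested, and the values at Mir103-1 and Mir103-2, and every ratio to Mir107, are uncertain for that reason.

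**Figure D2:**
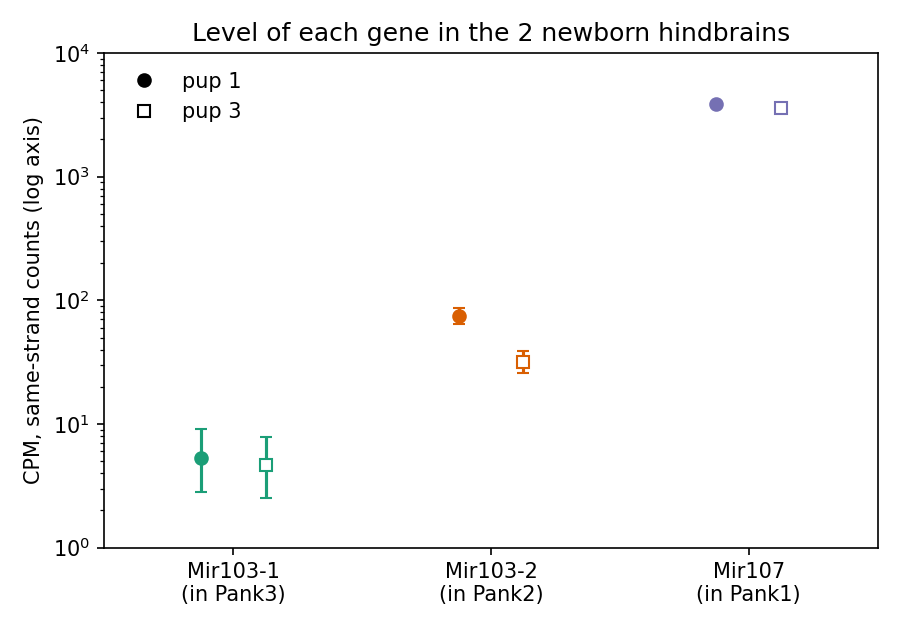
Level of each gene in CPM (log axis) in pup 1 (filled circles) and pup 3 (open squares), with exact 95% Poisson intervals that cover counting error. Mir107 lies between 3594 and 3878 CPM, Mir103-2 at 75.2 and 31.9 CPM, and Mir103-1 at 5.29 and 4.65 CPM.

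With 1 group no condition was compared, and the pups were set against each other. Each gene's counts were compared by an exact binomial test given the scaled totals (two-sided, Benjamini-Hochberg adjusted over the 395 genes that reached 10 counts in pup 1, pup 3 or both). The test asks whether the libraries differ beyond counting error, and it holds no replicate on either side. Mir103-2 was lower in pup 3, with a log2 fold of pup 3 over pup 1 of -1.29 (95% counting interval -1.66 to -0.93, exact binomial test, adjusted p = 1.2e-12). Its scaled level in pup 3 was 40.9% of that in pup 1. Mir107 was also lower in pup 3, by a small amount, with a log2 fold of -0.16 (interval -0.20 to -0.12, exact binomial test, adjusted p = 4.9e-15). Mir103-1 did not pass the test, with a log2 fold of -0.24 and an interval of -1.44 to 0.97 (exact binomial test, adjusted p = 0.835).

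So 2 of the 3 genes were lower in pup 3 and none was higher. Of all 395 genes tested, 46.8% differed, 25.6% higher and 21.3% lower in pup 3, and a called difference between these libraries is common. The split of 101 higher and 84 lower genes became 76 and 105 when the scaling factors were taken from the tested genes alone. The median log2 fold of the 3 genes was -0.24, beside 0.02 over all genes tested.

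The fold of Mir103-2 was the largest of the 3 in size. The common biological coefficient of variation over 361 genes was 16.5%, and log2 folds between the pups would have an SD of 0.34 at that value. The fold of Mir103-2 was -3.83 such SDs, that of Mir107 -0.48 and that of Mir103-1 -0.72. That SD was estimated from the same libraries, with the 3 genes among the 361, and it leaves out counting error. Counting error differed between the 3 genes, so these multiples are not test statistics and are not on a common footing. Among the 395 genes the fold of Mir103-2 was the 7th lowest, and by size in either direction it ranked 12th. Genes of like level also varied more than that SD. Within 2-fold of the mean CPM of Mir103-2 there were 49 other tested genes, whose log2 folds had a median size of 0.26 and an SD of 0.56. Of these, Mir451a (-1.88) was lower than Mir103-2, and 2 had a larger fold in either direction. The other was Mir144 (1.91), and both are red blood cell microRNAs, named here after their values were seen. Within 2-fold of Mir107, the median size over 53 other genes was 0.19, and 32 had a larger fold than Mir107. Within 2-fold of Mir103-1 it was 0.50, and 53 of 80 other genes had a larger one. The counting interval of Mir103-2 lies below that of Mir107 and overlaps that of Mir103-1. A difference between the folds of the Mir103 genes was not tested, and Mir103-1 had only 13 and 14 counts. Marker lists also differed between the pups. From pup 1 to pup 3, Mir10a and Mir10b went from 5.66% to 3.37% of counts. The red blood cell pair went from 0.0151% to 0.0105%, with Mir451a from 134 to 37.5 CPM and Mir144 from 17.1 to 67.1 CPM. The 8 neuronal genes together went from 3.83% to 4.11%. Of the 6 tested, 4 were higher and 1 lower, beside 25.6% and 21.3% over all genes tested. The lower was Mir149, the highest of the list, at 17477 and 15600 CPM. The red blood cell and neuronal sums therefore hold genes that went opposite ways. The part of these differences in the fold of Mir103-2 was not tested.

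**Figure D3:**
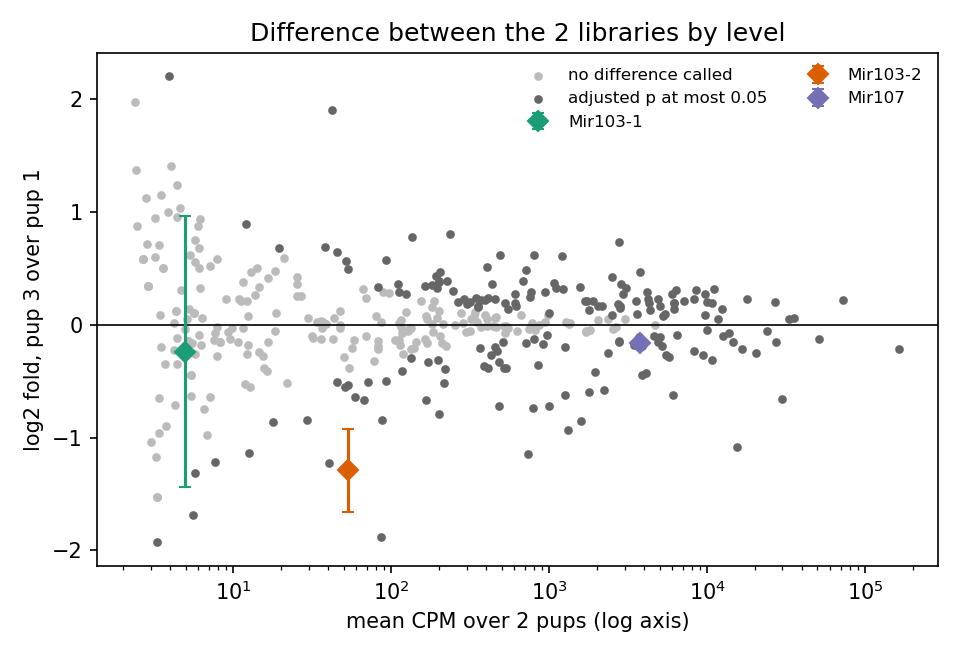
Log2 fold of pup 3 over pup 1 against the mean CPM (log axis) for 395 genes, dark grey where the adjusted p was at most 0.05. Coloured diamonds with 95% counting intervals mark Mir103-1 (-0.24), Mir103-2 (-1.29) and Mir107 (-0.16), and Mir103-2 lies at the lower edge of genes of its level.

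Other microRNAs made from more than 1 gene were set beside the Mir103 loci. This comparison was set up after the values of the 3 genes were known. By the inferred layout, reads of a shared arm with the same letters at both genes are not counted. The ratios within a pair therefore compare the remaining reads and do not measure how much RNA each gene made. Of 916 genes with a RefSeq mature sequence, 50 have in that table, like Mir103-1 and Mir103-2, 1 arm identical to an arm of another gene and 1 arm of their own. Their median level was 37.4 CPM, between Mir103-1 and Mir103-2, and 29 of them had at least 10 CPM in both pups. Mir107 is among 835 genes listed with no arm identical to another gene's, of which 248 had at least 10 CPM in both pups. Among the 50 genes with 1 shared arm and 1 arm of their own, there were 15 pairs in which each gene reached 10 counts in at least 1 pup. The genes of a pair differed by a median of 2.93-fold in mean CPM, and the Mir103 pair, at 10.8-fold, was the fourth most unequal. The 3 pairs with larger ratios were Mir181b-1 and Mir181b-2 (88.5-fold), Mir92-1 and Mir92-2 (38.2-fold), and Mir181a-1 and Mir181a-2 (27.6-fold). The folds between the pups differed by a median of 0.17 (log2) within a pair. In the Mir103 pair they differed by 1.05, the largest value of the 15 pairs, beside 0.99 in the Mir181b pair and 0.91 between Mir450-1 and Mir450-2. These pairs hold genes of few counts, with means of 4.97 CPM (Mir103-1), 8.25 CPM (Mir181b-1), and 4.58 and 4.36 CPM (Mir450-1 and Mir450-2). Mir29b-1 and Mir29b-2 were as low, at 5.70 and 5.13 CPM, and their folds differed by 0.11. Pairs other than Mir103 are named after their values were seen.

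**Figure D4:**
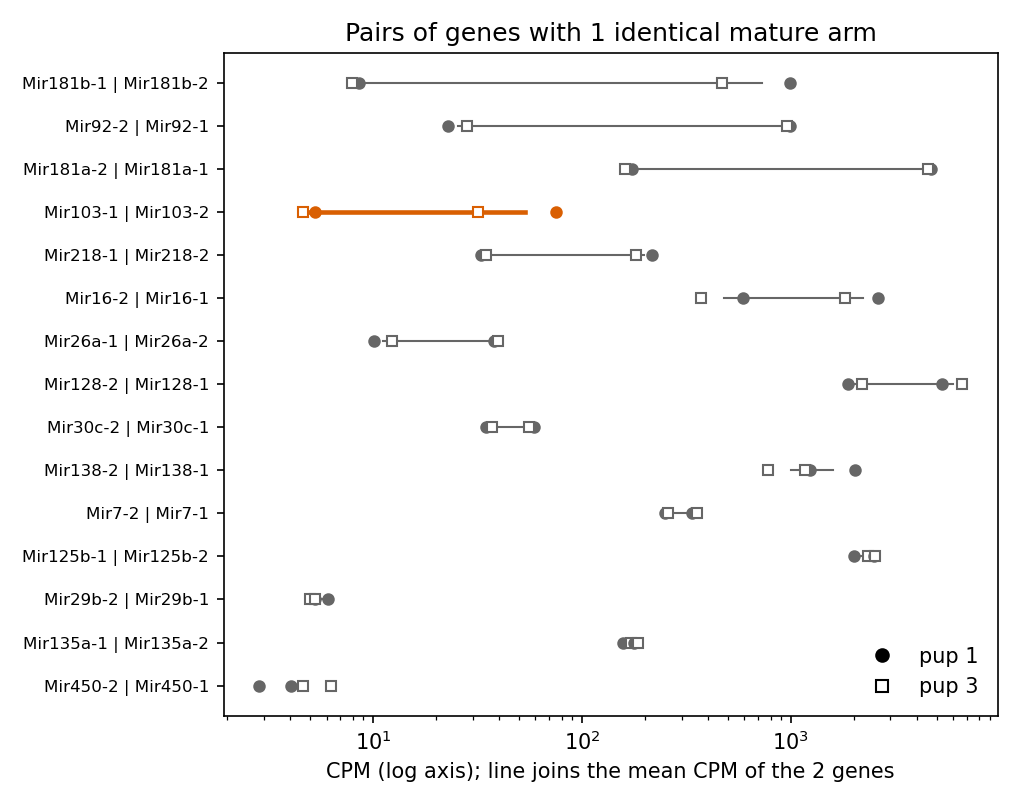
CPM (log axis) of both genes of 15 pairs that share 1 identical mature arm, in pup 1 (filled circles) and pup 3 (open squares), the gene with the lower mean named first. Lines join the mean CPM of the genes, and the orange line joins Mir103-1 (4.97 CPM) and Mir103-2 (53.5 CPM).

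Relatives of the 3p arms carry the same AGCAGC core 1 base further in. They include the miR-15 and miR-16 microRNAs, known for restraining the cell cycle, and they are shown with the core in capitals to let its position be compared.
miR-107-3p: AGCAGCauuguacagggcuauca
miR-15a-5p: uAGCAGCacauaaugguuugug
miR-16-5p: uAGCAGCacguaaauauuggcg
miR-322-5p: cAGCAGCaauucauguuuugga
The shift places a different stretch in the seed, AGCAGCA in these relatives against GCAGCAU in miR-103 and miR-107. Of 12 relatives listed, 10 had a row, and 8 of those hold the core in a RefSeq mature sequence. Of those 8, 7 had counts, of which 4 were higher and 2 lower in pup 3 and 1 did not pass the exact binomial test. Over all 395 genes tested, 25.6% were higher and 21.3% lower. The median log2 fold of the 7 was 0.27, beside 0.02 over all genes. The highest was Mir322 on the X chromosome, at 9668 ± 1533 CPM (SD, n = 2), above Mir107. The lowest detected gene of the list was Mir497b, with 0 and 2 counts on its own strand, and its RefSeq sequence holds no such core. On the opposite strand there were 2988 and 4363 counts. The listed relative miR-497a-5p, which holds the core, lies on that strand within the bounds of Mir497b. Its gene Mir497 had no row, so its level is not among those given. The 2 lower genes were those of miR-16, Mir16-2 with a log2 fold of -0.72 and Mir16-1 with one of -0.58. The miR-16-5p sequence, which holds the core, is identical at both. By the inferred layout, its reads with the same letters at both genes are in neither count. These 2 folds are therefore of other reads and do not measure miR-16-5p. The 4 higher were Mir15a (0.36), Mir503 (0.34), Mir15b (0.33) and Mir322 (0.27). Apart from Mir322, these genes are named after their values were seen.

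A second list held 14 microRNAs known, like miR-103 and miR-107, for roles in lipid and glucose metabolism, of which 13 had a row. Of these, 11 had at least 10 CPM in both pups and none was without counts. The listed genes of miR-26a, miR-29b and miR-30c each share an identical arm with another gene. By the inferred layout, reads of that arm with the same letters at both genes are not counted. The levels and folds of those genes therefore do not measure these microRNAs. Mir143, known for smooth muscle and for insulin signalling, was the highest at 8471 ± 1483 CPM. Mir802, of liver and pancreas, was the lowest with 6 and 7 counts. Of 12 tested genes, 4 were higher and 2 lower in pup 3, and 6 did not pass the exact binomial test. That is close to the 46.8% called over all genes tested (25.6% higher, 21.3% lower). Their median log2 fold was 0.04. Mir107 thus had a lower mean CPM than Mir143, and Mir103-1 a higher one than Mir802. Mir103-1 had only 13 and 14 counts, and a difference between it and Mir802 was not tested.

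The genes most like each of the 3 were taken as those with the smallest distance in log2(CPM + 1) over the 2 libraries. For Mir107 these were Mir139 (distance 0.039, 3732 ± 99.6 CPM), Mir34c (0.080, 3884 ± 251 CPM) and Mir433 (0.171, 3437 ± 210.2 CPM). For Mir103-1 they were Mir29b-2 and Mir6958, with 13 and 15 counts each, and Mir378d, with 12 and 15. For Mir103-2 the nearest genes were further away. They were Mir193b (0.511, log2 fold -0.56), Gm23935 (0.541, -0.54) and Mir3102 (0.549, -0.64), and each had a fold closer to 0 than that of Mir103-2. With 2 libraries, likeness of level and fold is all that this distance measures.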

How the data were processed

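MicroRNA-seq tables of 2 libraries of newborn hindbrain were used. The authors deposited raw read counts per gene, aligned to mm10 and annotated with GENCODE M4, per the file listings that accompany them. The sources used here name no aligner and no trimming tool. Counts stand in 3 columns, whose meaning (either strand, same strand, opposite strand) was inferred from the layout. Same-strand counts were used. Totals exclude the 4 rows without a gene. In pups 1 and 3, reads mapped to several loci were 40.2% and 42.0% of all reads, unmapped reads 13.7% and 12.4%, and reads with no listed gene on their strand 3.79% and 3.63%.

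CPM were computed over same-strand totals. Symbols and coordinates are from GENCODE M21 (GRCm38, mm10), which matched 1894 of 1973 rows by identifier. Genes that reached 10 counts in pup 1, pup 3 or both were compared by an exact binomial test (scipy 1.17.1) with TMM factors over all gene rows (edgeR 4.0.16, R 4.3.3), a prior of 0.5 counts and a threshold of 0.05 on the adjusted p. With 1 library a side, edgeR's quasi-likelihood test has no residual degrees of freedom and was left out. DESeq2 1.42.0 gave alternative size factors. Sequences are from RefSeq (GRCm38.p6), and folding energies from RNAfold 2.7.2. Named genes were the 3 members, the 3 nearest genes to each, and the highest and lowest detected gene of each list. Other genes are said to be named after their values were seen. The members and lists were chosen with earlier results of these data known. The table used for transcripts is not a genome, so matches elsewhere in the genome were not searched.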

Additional observations from a re-analysis of the deposited data

Results flagged for a closer look

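Reads that map to several loci, which no comparison above uses, made up 41.1% ± 1.29 (SD, n = 2) of all reads. They numbered 2337021 in pup 1 and 3015969 in pup 3. The tables give no gene for them, and how many carry miR-103-3p was not tested.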

How the results depend on the processing

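Scaled to all reads instead of same-strand counts, the mean was 2.09 CPM for Mir103-1, 22.6 for Mir103-2 and 1575 for Mir107, and the summed share was 0.160%. The other 40 alternative values that leave out no pup cover levels, the summed share, ratios, folds and the count of called genes. Levels, the share and ratios stayed within 1 SD, and folds kept their direction and their side of the threshold. Some of these checks could not fail. No read at these genes was on the opposite strand, so either-strand ratios equal the main ones. Precursor lengths are nearly equal, and a change of filter leaves the folds as they were. The SD is over 2 pups and is wide for Mir103-2, so staying within it is a weak check. Over 7 scalings, filters and strand choices the log2 fold ranged from -1.36 to -1.24 for Mir103-2, from -0.24 to -0.11 for Mir107 and from -0.32 to -0.19 for Mir103-1. The highest adjusted p by the exact binomial test were 1.1e-11, 2.2e-07 and 0.989, and the lowest for Mir103-1 was 0.702. The count of called genes lay between 177 and 196, beside 185 in the main setting. TMM factors over the tested genes alone were added after seeing the data. Single pups gave 31.9 CPM (without pup 1) and 75.2 CPM (without pup 3) for Mir103-2, 3594 and 3878 for Mir107, and 4.65 and 5.29 for Mir103-1. With 2 pups each value lies within 1 SD of the mean by construction, so these values say nothing of stability, and leaving out a pup leaves no comparison of pups. The level of Mir103-2 differed between the 2 libraries, and with 1 library per pup, pup and library cannot be told apart. No paired analysis was possible because there is 1 group. Depth limits Mir103-1 most, with 13 and 14 counts.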
